A study of Mus musculus with 4 samples.

Results

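Antiviral effectors induced by interferon were followed in back skin of K5-IKKbeta transgenic mice and wild type mice. The members were 10 named genes, Ifit1, Ifit2, Ifit3, Mx1, Mx2, Rsad2, Rtp4, Ifi44, Usp18 and Xaf1, and every probe set that the array annotation gives to 1 of them alone was taken. This rule goes by gene symbol and found 13 probe sets of 9 genes among 45101 probe sets. The 10 genes were themselves chosen with earlier results of these data known, so shares over all genes are given only as background. Ifi44 had no probe set under the rule and was not analysed here, and 0 probe sets named a member beside other genes. Of the 9 genes, 6 had 1 probe set and 3 (Rsad2, Rtp4 and Xaf1) had several.

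The K5-IKKbeta mice carry the gene of IKKbeta, a kinase that activates NF-kB, under keratin K5 regulatory elements, which act in basal keratinocytes of epidermis and hair follicle. Both groups were males of a C57BL6 X DBA2 background, 32 days old. There were 2 arrays of K5-IKKbeta skin and 2 of wild type skin, and each array held RNA of 3 mice of its genotype, so the spread within a group is a spread between pools and not between mice. Whether 1 or several transgenic lines were pooled is not given in the sources used here.

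Type I interferons bind a receptor whose kinases switch on the complex ISGF3, which holds Stat2 and Irf9 and binds the interferon-stimulated response element (ISRE) in front of many antiviral genes; Irf1 and Irf7 bind related sequences, and NF-kB acts with them at several such genes. The Ifit proteins bind viral RNA or one another and hold back translation, Mx proteins are dynamin-like GTPases that trap viral components, and Rsad2 (viperin) makes a nucleotide that stops viral polymerases. Usp18 removes the ubiquitin-like protein Isg15 from its targets and also damps signalling at the interferon receptor. Rtp4 is a chaperone of receptors, and Xaf1 binds the apoptosis inhibitor Xiap.

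The promoter sequence of 6 of the 10 members was at hand, from RefSeq on the mouse build GRCm38.p6. An ISRE core, searched as the letters GAAA, any 2 bases and GAAA again on both strands, occurred in 2.98% of 32851 windows of 250 bases before a gene start, and 2 or more cores that may overlap occurred in 0.180%. Among the members it stood in the windows of Ifit1, Ifit3 and Rsad2. Those 3 are shown with the first of both Ifit2 windows, in which the core was not found. Ifit1, Ifit2 and Ifit3 are neighbours on chromosome 19 whose windows differ in this core. An ISRE outside these windows or with other letters was not searched for, so Ifit2 may still have one. Sequences run 5′ to 3′ on the gene's strand up to the base before the start, and capitals mark the ISRE core, which here reads on the opposite strand.
Ifit1, chr19:34640639-34640888, plus strand: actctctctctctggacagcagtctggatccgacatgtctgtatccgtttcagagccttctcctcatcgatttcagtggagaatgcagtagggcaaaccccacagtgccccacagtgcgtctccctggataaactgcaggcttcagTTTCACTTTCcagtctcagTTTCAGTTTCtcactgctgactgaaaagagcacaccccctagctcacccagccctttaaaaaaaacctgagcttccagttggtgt
Ifit3, chr19:34583279-34583528, plus strand: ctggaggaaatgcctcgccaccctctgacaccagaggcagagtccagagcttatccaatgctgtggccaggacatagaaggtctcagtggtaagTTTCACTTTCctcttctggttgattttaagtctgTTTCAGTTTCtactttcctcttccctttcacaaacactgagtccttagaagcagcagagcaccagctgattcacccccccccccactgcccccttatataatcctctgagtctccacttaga
Ifit2, chr19:34550444-34550693, plus strand: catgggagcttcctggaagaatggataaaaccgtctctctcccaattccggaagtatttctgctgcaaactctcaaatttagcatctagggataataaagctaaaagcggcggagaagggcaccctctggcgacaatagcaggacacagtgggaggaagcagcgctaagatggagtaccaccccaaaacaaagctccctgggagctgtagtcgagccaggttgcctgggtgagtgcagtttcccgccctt
Rsad2, chr12:26456453-26456702, minus strand: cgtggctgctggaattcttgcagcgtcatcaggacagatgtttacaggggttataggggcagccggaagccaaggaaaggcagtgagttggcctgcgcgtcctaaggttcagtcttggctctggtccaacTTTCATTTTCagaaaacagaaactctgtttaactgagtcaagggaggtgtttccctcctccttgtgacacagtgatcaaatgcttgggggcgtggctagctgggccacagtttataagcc
Counted back from the start, the cores of Ifit1 begin at -104 and -85, those of Ifit3 at -156 and -122, and that of Rsad2 at -120. The NF-kB consensus was found in 5.00% of all windows and, among the members, in the Ifit2 window at -247. No ISRE core was found in the other Ifit2 window or in those of Ifi44 and Xaf1. A match describes these letters and is no evidence of binding in skin.

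Array values are log2 RMA values. RMA corrects background, brings the probe values of the arrays to the same distribution and then summarises the probes of a set. Levels of different probe sets are therefore not compared. A positive log2 fold change means a higher value in K5-IKKbeta skin. Gene values come from limma fitted over 13074 genes with 1 probe set each, with Benjamini-Hochberg adjustment over all of them, and a gene was called at an adjusted p below 0.05. Pearson's correlation over all probe sets was 0.994 between the K5-IKKbeta arrays, 0.996 between the wild type arrays and 0.965 to 0.969 between genotypes, across probe sets, which are not independent. Array medians lay between 6.91 and 6.96 and 25th percentiles between 5.27 and 5.38, so the summarised values did not share 1 exact distribution. Of 5 probe sets of Ikbkb, the gene of the transgene, the one with the widest group difference read 8.77 and 8.74 in K5-IKKbeta skin, against 6.50 and 6.54 in wild type skin. A further pair was called higher, at 1.42-fold and 1.39-fold, 1 lay below the 25th percentile on all arrays, and 1 had overlapping groups (log2 fold change -0.15, limma adjusted p = 0.525 over all probe sets). Krt10, a keratin of the upper epidermis, read 14.18 and 14.11 in K5-IKKbeta skin, against 13.43 and 13.46 in wild type skin, near the top of the range of values on each array.

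All 9 antiviral genes had both K5-IKKbeta arrays above both wild type arrays, and 7 of them rose. Ifit1 and Rtp4 had the widest differences, at 6.60-fold and 6.04-fold, and Mx2 had the narrowest, at 1.26-fold. Over all tested genes 33.9% were called, 23.4% higher and 10.6% lower, and 44.2% had an unadjusted p below 0.05. Both K5-IKKbeta arrays were on top in 45.2% of them, so that order is a common outcome in this comparison. The median log2 fold change was 1.64 over the 9 members, which is 3.12-fold, against 0.09 over all genes tested. In 8 of the 9 the fitted difference was at least 2-fold, as it was upward in 5.99% of all genes. In whole skin, more cells of a type that make a transcript and more transcript per cell cannot be told apart.

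**Figure D1:**
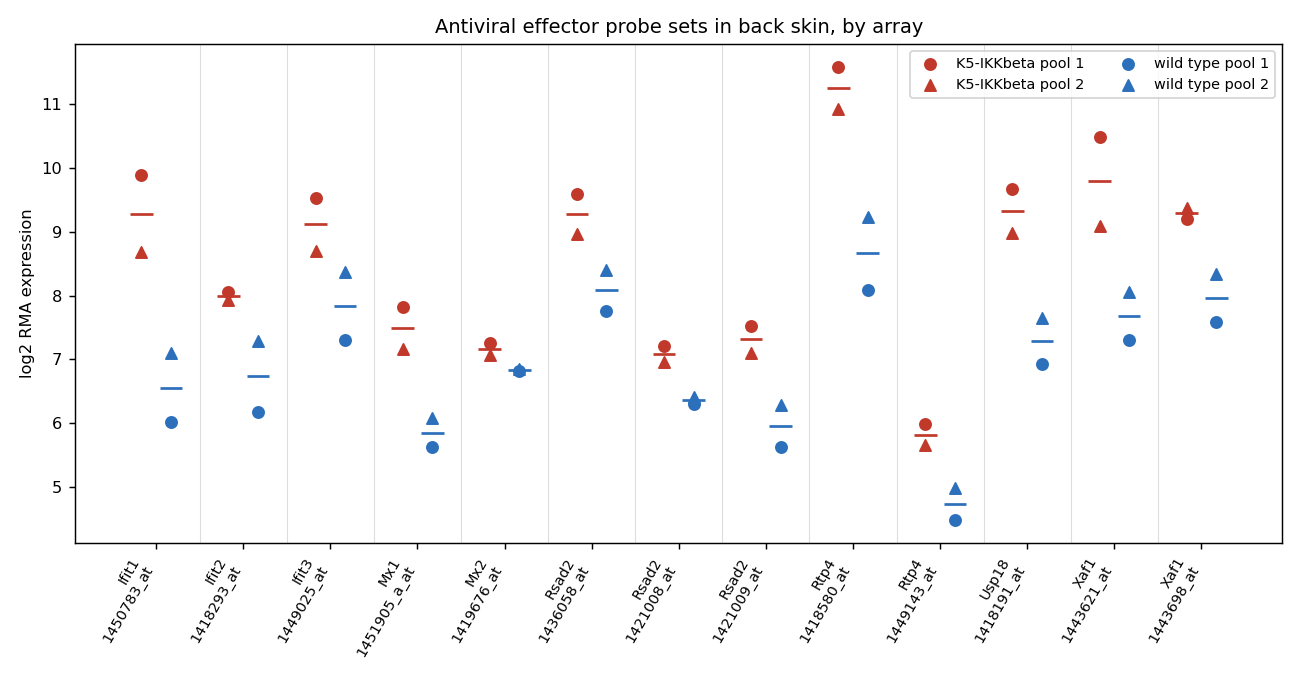
Log2 RMA expression of the 13 member probe sets on each array, with K5-IKKbeta pools in red to the left of wild type pools in blue; circles are pool 1, triangles pool 2 and short lines the group mean of 2 pools. In every probe set both red points lie above both blue points, by 0.22 to 1.69 between the nearest pair.

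Ifit1, whose product binds viral RNA that lacks host cap methylation, measured 9.89 and 8.68 in K5-IKKbeta skin, against 6.01 and 7.11 in wild type skin. The groups did not overlap, with 1.57 between the nearest arrays, although the pools of each genotype were more than 1 unit apart. Ifit1 averaged 9.28 ± 0.85 in K5-IKKbeta skin and 6.56 ± 0.77 in wild type skin (SD, n = 2 each). Its log2 fold change was 2.72 (95% interval 1.55 to 3.89, limma adjusted p = 0.0075), and 0.291% of tested genes had a larger log2 fold change. The log2 fold change was 2.12 without K5-IKKbeta pool 1 and 3.33 without K5-IKKbeta pool 2.

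Ifit2, a partner of Ifit1 that also binds RNA, measured 8.06 and 7.93 in K5-IKKbeta skin, against 6.18 and 7.30 in wild type skin. The K5-IKKbeta pools were close and the wild type pools far apart. It rose by a log2 fold change of 1.26 (95% interval 0.43 to 2.08, limma adjusted p = 0.033). That value was 0.70 without wild type pool 1 and 1.82 without wild type pool 2. In the separate fit over all probe sets its adjusted p was 0.048.

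Ifit3 measured 9.54 and 8.71 in K5-IKKbeta skin, against 7.31 and 8.38 in wild type skin. The lower K5-IKKbeta pool lay 0.33 above the higher wild type pool. Its log2 fold change of 1.28, of a size with that of Ifit2, missed the threshold (95% interval 0.30 to 2.26, limma adjusted p = 0.054). The log2 fold change was 0.86 without K5-IKKbeta pool 1 and 1.69 without K5-IKKbeta pool 2. It was 0.74 without wild type pool 1 and 1.81 without wild type pool 2. Mouse Ifit3 has a close copy, Ifit3b, next to it on the chromosome, so this signal may hold both.

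The neighbouring Ifit genes read low. Ifit1bl1 measured 6.31 and 5.81 in K5-IKKbeta skin, against 4.80 and 5.14 in wild type skin, where both arrays lay below the 25th percentile of their probe sets. By this floor it was at least 1.64-fold higher in K5-IKKbeta skin (limma adjusted p = 0.014 over all probe sets). The brighter probe set of Ifit1bl2 measured 5.98 and 5.97 in K5-IKKbeta skin and 5.90 and 5.82 in wild type skin (adjusted p = 0.57 over all probe sets). No role is given here for these copies.

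Mx1, a nuclear GTPase active against influenza virus where the gene is intact, measured 7.82 and 7.16 in K5-IKKbeta skin, against 5.62 and 6.07 in wild type skin. Both K5-IKKbeta pools were more than 1 unit above both wild type pools. It rose by a log2 fold change of 1.64 (95% interval 1.04 to 2.25, limma adjusted p = 0.0042). RefSeq lists Mx1 and Mx2 of the C57BL/6J assembly as transcribed pseudogenes, so these are transcript levels and say nothing of a working protein.

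Mx2, the neighbour of Mx1 on chromosome 16 and in mice a cytoplasmic GTPase, measured 7.26 and 7.08 in K5-IKKbeta skin, against 6.82 and 6.85 in wild type skin. The groups lay 0.22 apart at the nearest, and the pools of each genotype were close. Its log2 fold change of 0.33 (95% interval 0.08 to 0.59) missed the threshold (limma adjusted p = 0.055). Mx2 passed with the limma fit on means of all probe sets of a gene (0.33, adjusted p = 0.045), where its own values are unchanged. By limma it missed without a filter (adjusted p = 0.081), after a further quantile normalization (0.075) and with other eBayes settings (0.088). Its log2 fold change was 0.24 without K5-IKKbeta pool 1 and 0.43 without K5-IKKbeta pool 2.

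Rsad2 was read by 3 probe sets. The brightest, 1436058_at, measured 9.59 and 8.96 in K5-IKKbeta skin, against 7.76 and 8.41 in wild type skin, with a log2 fold change of 1.19 (95% interval 0.52 to 1.87, limma adjusted p = 0.020). Without wild type pool 1 its log2 fold change was 0.87. All 3 sets gave the same direction and no overlap of groups, with sizes that differed. Probe set 1421009_at measured 7.53 and 7.10 in K5-IKKbeta skin, against 5.62 and 6.29 in wild type skin (log2 fold change 1.36, limma over all probe sets, adjusted p = 0.013). The third, 1421008_at, measured 7.20 and 6.95 in K5-IKKbeta skin, against 6.31 and 6.41 in wild type skin (0.72, adjusted p = 0.013 over all probe sets).

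Cmpk2, a nucleotide kinase that makes the substrate of viperin, lies next to Rsad2 on chromosome 12. Its brighter probe set measured 8.21 and 8.18 in K5-IKKbeta skin, against 6.31 and 7.22 in wild type skin. It rose 2.69-fold (limma adjusted p = 0.011), and as in Ifit2 the K5-IKKbeta pools were close and the wild type pools apart. The dimmer probe set measured 6.94 and 7.03 in K5-IKKbeta skin, against 6.76 and 6.49 in wild type skin, and was not called (0.36, adjusted p = 0.120 over all probe sets). There the pool order of both genotypes was the opposite of the order in the members.

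Usp18 measured 9.68 and 8.99 in K5-IKKbeta skin, against 6.93 and 7.64 in wild type skin. The nearest arrays of the groups were 1.34 apart. It rose 4.14-fold (log2 fold change 2.05, 95% interval 1.31 to 2.79, limma adjusted p = 0.0039). Without each array in turn the log2 fold change ran from 1.69 to 2.41.

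Rtp4 measured 11.59 and 10.93 in K5-IKKbeta skin, against 8.09 and 9.23 in wild type skin, with probe set 1418580_at. The gap of 1.69 between the nearest arrays was the widest of the 13 probe sets. Rtp4 averaged 11.26 ± 0.47 in K5-IKKbeta skin and 8.66 ± 0.81 in wild type skin (SD, n = 2 each). Its log2 fold change was 2.59 (95% interval 1.64 to 3.55, limma adjusted p = 0.0043). The other probe set, 1449143_at, measured 5.99 and 5.65 in K5-IKKbeta skin, against 4.49 and 4.98 in wild type skin. There both wild type arrays lay below the 25th percentile, so its change is given as at least 1.39-fold higher in K5-IKKbeta skin (adjusted p = 0.013 over all probe sets). It is the only member probe set with a wild type array below that floor, and no K5-IKKbeta array was below it in any of the 13.

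Xaf1 was read by a pair of probe sets that disagreed on the K5-IKKbeta pools. With 1443621_at it measured 10.49 and 9.10 in K5-IKKbeta skin, against 7.31 and 8.06 in wild type skin, and rose 4.32-fold (log2 fold change 2.11, 95% interval 0.97 to 3.25, limma adjusted p = 0.017). With 1443698_at it measured 9.21 and 9.38 in K5-IKKbeta skin, against 7.58 and 8.33 in wild type skin (log2 fold change 1.33, adjusted p = 0.013 over all probe sets). Pool 1 of K5-IKKbeta skin was thus 1.40 above pool 2 in the first set and 0.17 below it in the second, while the wild type pools were 0.75 apart in both. With 1443621_at the log2 fold change was 1.74 without wild type pool 1, 1.41 without K5-IKKbeta pool 1 and 2.81 without K5-IKKbeta pool 2.

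Over the 13 probe sets, 11 were called higher and 0 lower by limma over all probe sets, where 16.3% were called, 10.4% higher and 5.88% lower. Those short of the threshold were the sets of Ifit3 (adjusted p = 0.077) and Mx2 (adjusted p = 0.11). All 13 had both K5-IKKbeta arrays above both wild type arrays, as 30.3% of all probe sets had. The median log2 fold change was 1.33 over the members and 0.00 over all probe sets. Counts of calls without each array in turn varied for members and for all genes, and are given side by side in the closing section.

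**Figure D2:**
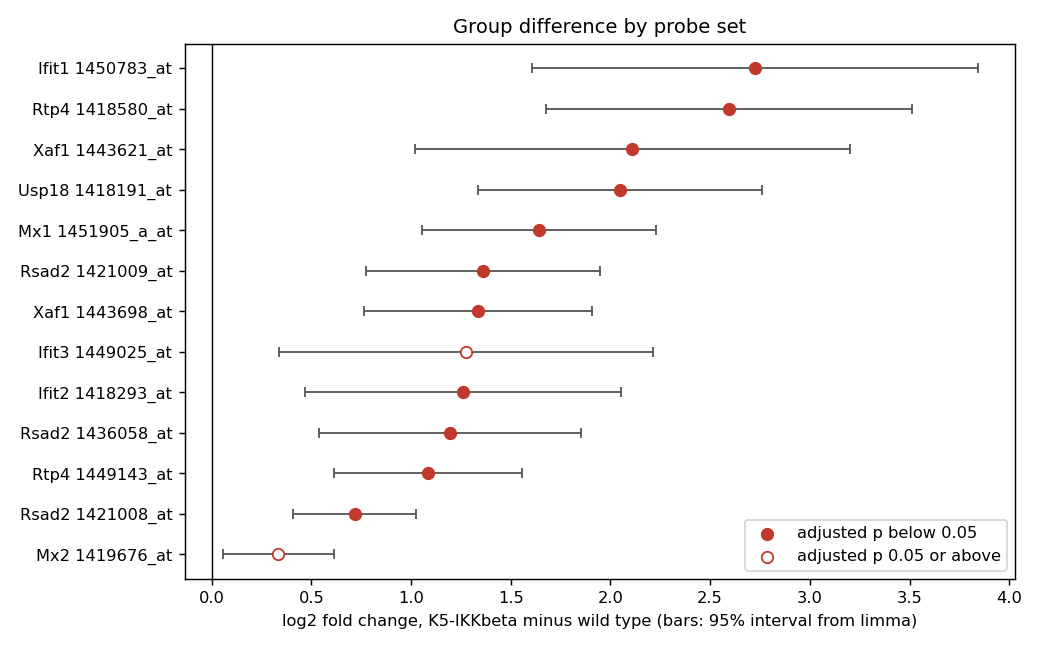
Log2 fold change of each member probe set, K5-IKKbeta minus wild type, with the 95% interval of the limma fit over all probe sets; filled points have an adjusted p below 0.05. The points run from 0.33 for Mx2 to 2.72 for Ifit1, and every interval lies above 0.

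The pools of 1 genotype differed in these genes as well. K5-IKKbeta pool 1 was above K5-IKKbeta pool 2 in 12 of 13 probe sets, with a median difference of 0.63 and a range of -0.17 to 1.40. Wild type pool 1 was below wild type pool 2 in all 13, with a median difference of -0.72 and a range of -1.14 to -0.04. Over all probe sets the K5-IKKbeta order held in 54.1% and the wild type order in 52.3%. Both orders held together in 12 of 13 member probe sets, as they did in 23.2% of all probe sets. With 1 array on each side these differences have no test.

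Pool differences of this size were rare on the arrays. Of all probe sets, 5% had a K5-IKKbeta difference above 0.41, and 8 of the 13 member sets were above that value. Likewise 5% of all probe sets had a wild type difference below -0.30, and 11 of the 13 were below it. The exceptions in wild type skin were Mx2 and the Rsad2 set 1421008_at, which also had the smallest group differences of the 13, that of Mx2 short of the threshold. Over the tested genes an absolute pool difference of at least 0.5 was found in 4.58% in K5-IKKbeta skin and 1.28% in wild type skin, and in 7 of the 9 members in each genotype.

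**Figure D3:**
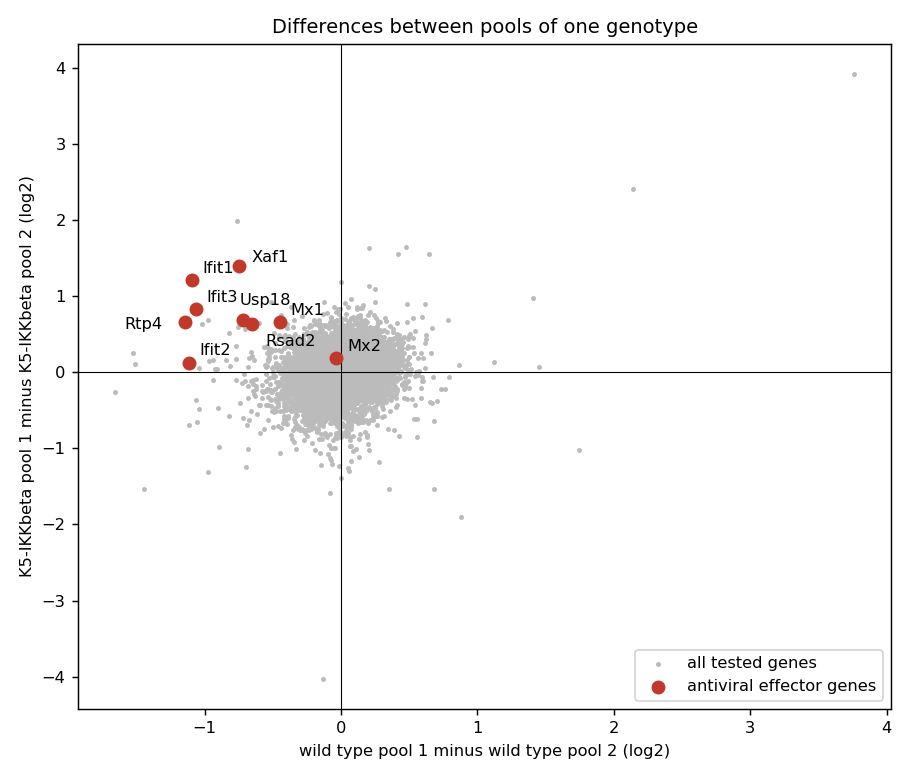
Pool 1 minus pool 2 within K5-IKKbeta skin (vertical axis, log2) against pool 1 minus pool 2 within wild type skin (horizontal axis, log2), for all tested genes in grey and the 9 antiviral genes in red. The 9 members lie to the upper left, above 0 in K5-IKKbeta skin and below 0 in wild type skin, which held 25.8% of tested genes.

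Because of these orders, the size of the group difference depended on which pools were set against each other. The median over the 13 probe sets was 1.91 for K5-IKKbeta pool 1 minus wild type pool 1 and 0.81 for K5-IKKbeta pool 2 minus wild type pool 2. In each of the 13 the group difference was larger than either pool difference, as it was in 45.7% of all probe sets. Mice within a pool cannot be seen, so a pool difference may come from 1 animal or from all 3. This was not tested.

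The 5 tested genes outside the members whose profile over the 4 arrays lay nearest to the median profile of the 9 were Bst2, Ifih1, Dhx58, Rnf213 and Parp9. Likeness was measured as the root mean square distance of log2 values centred over the 4 arrays, which was 0.086 for Bst2 and 0.118 for Parp9. Bst2, or tetherin, which holds budding virus at the cell surface, measured 9.92 and 9.29 in K5-IKKbeta skin, against 7.77 and 8.16 in wild type skin. Ifih1 (MDA5), a sensor of long double-stranded RNA, measured 10.31 and 9.66 in K5-IKKbeta skin, against 8.14 and 8.75 in wild type skin. Their order of pools is that of the members by the way they were chosen. Among the members themselves Mx1 was nearest to that profile (0.071) and Mx2 farthest (0.736).

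No ligand of the pathway rose. Of 19 interferon genes listed, 10 had a probe set, and by limma over all probe sets 0 were called higher and 0 lower, with 1 at an unadjusted p below 0.05, Ifna5 (log2 fold change -0.49, adjusted p = 0.094), where 29.1% of all probe sets had one. Ifnb1, the interferon beta gene, measured 5.77 and 5.60 in K5-IKKbeta skin, against 5.88 and 5.74 in wild type skin. Ifng, of interferon gamma, measured 4.07 and 4.40 in K5-IKKbeta skin and 4.06 and 4.11 in wild type skin, all below the 25th percentile. Values over the 10 ran from 3.39 to 6.88, and 1 gene, Ifnz, was bright enough for the gene fit (0.21, adjusted p = 0.19). At such levels a change in ligand transcripts may not be seen on these arrays.

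Receptors and signalling genes were higher. Of 11 tested, 10 rose and 0 fell, where 23.4% of all tested genes rose, with a median log2 fold change of 0.95. Stat2 and Irf9, which are parts of ISGF3, rose 2.98-fold and 2.77-fold (limma adjusted p = 0.0013 and 0.0043), and Jak2, a kinase of the gamma receptor, 2.51-fold. Ifnar2, the receptor chain to which Usp18 binds, rose 2.06-fold (adjusted p = 0.00092). The remaining gene, Ifnlr1, the receptor of interferon lambda, had 0.22 (adjusted p = 0.145).

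Of 7 interferon regulatory factors outside ISGF3, 6 rose and 0 fell, with a median of 0.77. Irf1 rose 3.60-fold, Irf8 of myeloid cells 2.49-fold, and Irf7, which drives interferon alpha genes, 2.47-fold (limma adjusted p = 0.0011, 0.00030 and 0.018). Irf3 had 0.21 (adjusted p = 0.136). Of 12 tested sensors of nucleic acid and their adaptors 9 rose and 0 fell, with a median of 0.81, led by the kinase Ikbke at 3.17-fold, the RNA sensors Ddx58 (RIG-I) at 2.95-fold and Ifih1 at 2.91-fold, and Zbp1 at 2.88-fold. Short of the threshold were Cgas (0.34), Ticam1 (0.17) and Tlr9 (-0.17).

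Other interferon-induced antiviral genes gave 40 of 42 higher and 0 lower, with a median of 1.42, against 1.64 over the 9 members. Oasl2 rose 11.3-fold, Ddx60, a helicase, 7.04-fold, Ifi47, a GTPase, 5.13-fold, and Oas3, which makes the activator of RNase L, 4.97-fold. Below it stayed Isg20 (0.19, adjusted p = 0.191) and Pnpt1 (0.21, adjusted p = 0.167), both nucleases. K5-IKKbeta pool 1 was above pool 2 in 35 of these 42 genes, and wild type pool 1 below pool 2 in 36 of 42. Over all tested genes these orders held in 48.7% and 62.7%. Among partners of the member proteins 6 of 12 rose and 0 fell. They included Birc3, an apoptosis inhibitor and a known NF-kB target, at 3.41-fold, Stat2, and Uba7, which activates Isg15, at 2.53-fold. Xiap, to which Xaf1 binds, had 0.08 (adjusted p = 0.62). Of relatives by sequence only Dnm1 and Dnm2, dynamins akin to Mx, were tested; Dnm1 rose 1.79-fold and Dnm2 had -0.15 (adjusted p = 0.29).

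**Figure D4:**
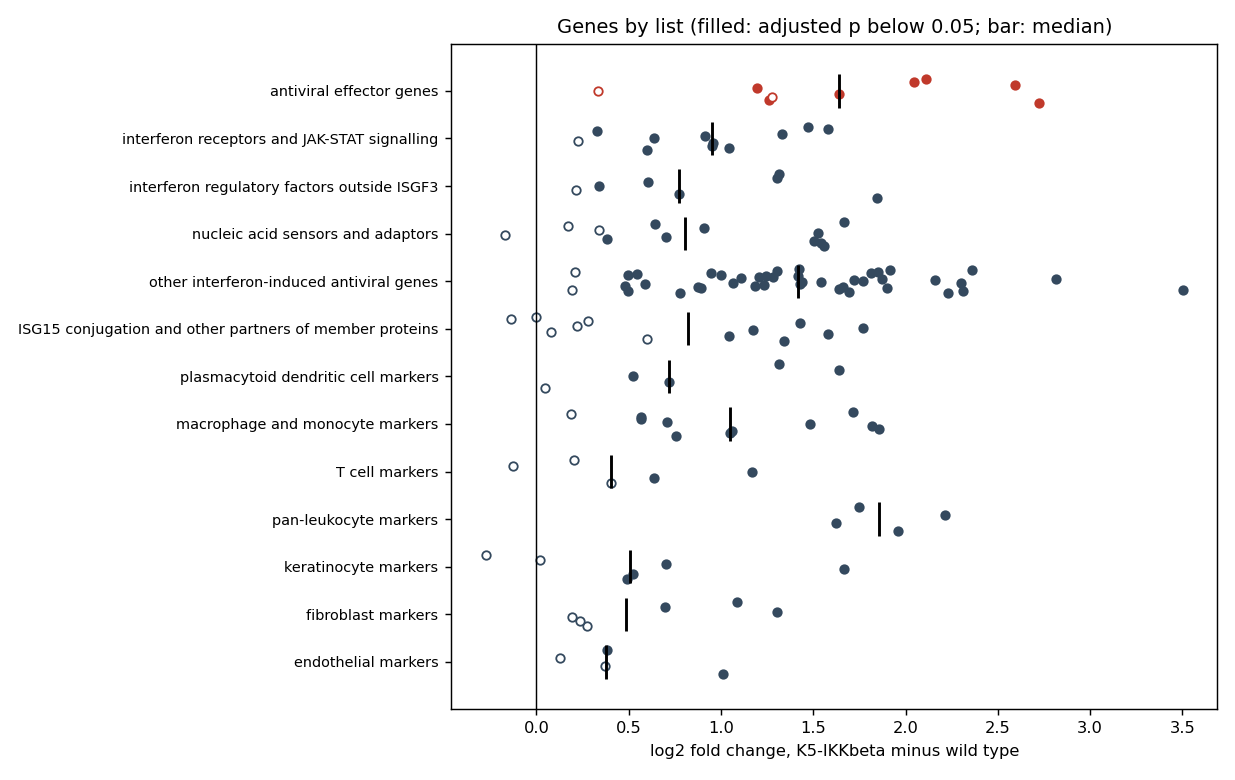
Log2 fold change of each tested gene, K5-IKKbeta minus wild type, for the 9 antiviral genes (red) and for lists with at least 4 tested genes; filled points have an adjusted p below 0.05 and bars mark medians. The medians of the pathway lists run from 0.77 to 1.42, against 1.64 for the 9 genes.

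Pan-leukocyte and macrophage markers moved in the same direction as the antiviral genes, and other leukocyte lists did so in part or not at all. All 4 pan-leukocyte markers rose, among them Coro1a 4.63-fold and Ptprc (CD45) 3.89-fold, and their summed level was 11.94 and 11.99 in K5-IKKbeta skin, against 10.01 and 10.17 in wild type skin, as log2 of the sum. Of 11 macrophage and monocyte markers 10 rose and 0 fell (median 1.05), with summed levels of 13.53 and 13.57 in K5-IKKbeta skin, against 12.35 and 12.25 in wild type skin. Such sums are led by the brightest probe sets, here those of Lyz2 and Csf1r. They serve only to compare arrays and are no measure of cell number. T cell markers gave 2 of 5 higher and 0 lower, with Cd4 at -0.13 (adjusted p = 0.432), and 1 of 5 without wild type pool 2. Neutrophil markers gave 0 of 2 higher by limma, Elane at -0.13 (adjusted p = 0.581) and Camp at 0.11 (adjusted p = 0.786), and 1 of 2 without K5-IKKbeta pool 1. Of the NK cell markers 1 was tested, Klrk1, which rose (0.73, adjusted p = 0.013) but not without wild type pool 2, and no B cell marker was bright enough to be tested. Of 5 tested plasmacytoid dendritic cell markers 4 rose, among them Bst2 and Irf8, which the interferon lists also hold, and 2 of 5 did so without wild type pool 1 or without wild type pool 2. Beside Bst2 and Irf8 the markers that rose were Ly6d, 1.65-fold, and Tcf4, 1.43-fold. Siglech, which defines these cells, read 7.31 and 7.23 in K5-IKKbeta skin and 7.27 and 7.18 in wild type skin (limma adjusted p = 0.76). Among markers too dim to be tested, Pacsin1 read 5.98 and 5.99 in K5-IKKbeta skin, against 6.40 and 6.36 in wild type skin. Ccr9 and Klk1b27, also too dim, did not separate the groups. The part of such cells in the rise of the antiviral genes was not tested.

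Between pools of a genotype, K5-IKKbeta pool 1 was above pool 2 in 3 of the 11 macrophage markers and wild type pool 1 below pool 2 in 5 of the 11. Their median pool differences were -0.03 in K5-IKKbeta skin and 0.04 in wild type skin. Pan-leukocyte markers gave -0.06 in K5-IKKbeta skin and -0.19 in wild type skin. Keratinocyte markers gave 0.16 in K5-IKKbeta skin and 0.01 in wild type skin, with K5-IKKbeta pool 1 above pool 2 in 5 of 6 and wild type pool 1 below pool 2 in 3 of 6. T cell markers gave 0.23 in K5-IKKbeta skin, where pool 1 was above pool 2 in 5 of 5, and 0.15 in wild type skin, where pool 1 was below pool 2 in 1 of 5. Fibroblast markers had the opposite order to the antiviral genes, with a median of -0.15 in K5-IKKbeta skin, where pool 1 was above pool 2 in 0 of 6, and 0.11 in wild type skin, where pool 1 was below pool 2 in 0 of 6. Over all tested genes K5-IKKbeta pool 1 was above pool 2 in 48.7%, and wild type pool 1 below pool 2 in 62.7%. These orders have no test.

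Between the groups 4 of 6 keratinocyte markers rose and 0 fell, Krt1, of the suprabasal layers, 3.17-fold. This count was 2 of 6 without K5-IKKbeta pool 1, without wild type pool 1 or without wild type pool 2. Of the fibroblast markers 3 of 6 rose and 0 fell (median 0.48), led by Pdgfra at 1.30. Of the endothelial markers 2 of 4 rose and 0 fell (median 0.38), and 1 of 4 without wild type pool 1 or without wild type pool 2.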

How the data were processed

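The deposited table held log2 RMA values of 45101 probe sets on 4 arrays, made by the authors with RMA, per the submitters' processing notes, which give no version or log base; values from 2.65 to 14.67 are the range of log2 RMA values. Labelled cRNA was made from total RNA, per the labels' protocols. No scan batch is named in the labels. Precision is limited by having 4 arrays. The limma p-values and intervals use a spread between pools that is drawn towards that of all genes. The prior degrees of freedom were 4.00 in the gene fit, against 2 residual ones. Where a gene's own pools lie farther apart than most, as for Ifit1, the fit therefore uses a smaller spread than its own.

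Probe sets were named by the platform annotation (34958 with 1 symbol, 932 with several, 9211 with none). For each of 18194 genes the brightest probe set was taken, and 13074 genes whose mean passed 6.33, the 40th percentile over probe sets, entered a limma 3.58.1 fit (R 4.3.3, lmFit and eBayes) with genotype as its single term, two-sided p-values and Benjamini-Hochberg adjustment. All probe sets were fitted the same way without a filter. All 9 genes and 12 of the 13 probe sets lay above the cutoff. The floor for a fold, where both wild type arrays were dimmer, is the 25th percentile on each array.

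Members and lists were chosen with earlier results of these data known, so no test was made over the list alone. Named genes were all members, up to 4 called genes a list with the largest change (or up to 2 of the smallest p), any direction or remainder of few genes, and the 5 nearest profiles; others, such as Cmpk2, Ifit1bl1, Xiap, Ifnb1, Ifng and the cell type markers, were chosen after their values were seen. The replicate numbers mark no shared litter or day in the labels: over the tested genes the pool differences of both genotypes correlated at 0.25, across genes, and 2 pairs cannot settle a pairing. Alternatives were other filters, the mean of probe sets, sets with shared sequence left out, other scalings, other eBayes settings, a replicate block and each array left out.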

Additional observations from a re-analysis of the deposited data

How the results depend on the processing

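All 9 member genes kept their direction under every alternative run in which they were tested. Without each array in turn, 5 to 9 of the 9 genes and 3 to 11 of the 13 probe sets were called, 2253 to 4640 of all genes (1570 to 3096 higher and 669 to 1544 lower), and 56 to 68 of the 83 tested genes of the pathway lists were higher, against 68 with all arrays. The lower counts over all genes were those without either wild type array (2379 genes without wild type pool 1 and 2253 without wild type pool 2). With the replicate number as a block, 4 of the 9 genes and 7 of the 13 probe sets were called, while the count over all genes was 4553, against 4436; Ifit2, Rsad2 and Xaf1 then had adjusted p = 0.053, 0.063 and 0.054. The log2 fold changes were the same with and without the block. Whether the numbers pair the pools is not known, so the calls of Ifit2, Rsad2 and Xaf1 depend on a choice that the labels do not settle. Filters, means of probe sets, scalings and eBayes settings gave 5 of 6 to 8 of 9 genes called; at the 60th percentile Ifit2, Mx1 and Mx2 were not tested. A further quantile normalization left the median pool difference of the member probe sets at 0.66 in K5-IKKbeta skin and -0.72 in wild type skin. The calls over all genes moved with it, to 2580 higher and 1780 lower, against 3056 and 1380 in the main fit. The median log2 fold change of all genes was then 0.02, against 0.09. Of the 13 member probe sets 10 were called after it, against 11 in the main fit. Without detection calls, the dim values of interferon ligands and of the second Rtp4 probe set limit what can be said of them.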
